A study of Homo sapiens with 9 samples.

Results

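The guanylate-binding protein genes GBP1 to GBP5, the transcription factor gene IRF1 and the genes of both interferon-gamma receptor chains, IFNGR1 and IFNGR2, were followed in B-cell lymphoma cells expressing BCL10 mutants. These 8 genes were chosen by symbol from the 60656 genes of the deposited count table, and all 8 are listed there. RIVA is an established cell line of diffuse large B-cell lymphoma (DLBCL). The cells carried a lentiviral plvx-Tetone construct, from which doxycycline switches on either of 2 BCL10 mutants, the truncated S136X or R58Q with its single amino-acid change. The empty vector, listed as BCL10 wild type, was the control. All groups received doxycycline for 24 h, at 200 ng/mL by the treatment protocol (another label field gives the same figure per µL). Each of the 3 groups had 3 libraries, and no uninduced or BCL10 wild-type overexpressing cells were analysed here. Whether each line was 1 clone or a pool of infected cells is not given in the sources used here.

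Interferon-gamma binds a receptor built from IFNGR1, which holds the ligand, and IFNGR2, which is needed for signalling. The receptor activates the kinases JAK1 and JAK2, and the signal ends at gamma-activated sites (GAS) in promoters such as that of IRF1. IRF1 in turn binds interferon-stimulated response elements (ISRE) and switches on guanylate-binding proteins, large GTPases that attack the vacuoles of intracellular pathogens, and genes of antigen presentation. Type I interferons act through another receptor and use STAT2 and IRF9, and many genes answer both kinds of interferon. IRF1 is also a target of NF-kB, the pathway in which BCL10 works between the B-cell receptor and the IkB kinase complex, and it is studied in lymphoma as a regulator of immune recognition and cell death.

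The promoter windows of 3 members are shown because the results turn on these genes. IRF1 moved in both mutants, and GBP1 was detected mostly in R58Q libraries. GBP3 was the 1 guanylate-binding protein gene with counts in every library. The windows come from RefSeq (GRCh38.p14), run from 250 bases before the start site to 30 after it, and are written 5′ to 3′ along the transcript. Capitals mark matches to the motifs described next.
IRF1 (chr5:132490744-132491023, minus strand): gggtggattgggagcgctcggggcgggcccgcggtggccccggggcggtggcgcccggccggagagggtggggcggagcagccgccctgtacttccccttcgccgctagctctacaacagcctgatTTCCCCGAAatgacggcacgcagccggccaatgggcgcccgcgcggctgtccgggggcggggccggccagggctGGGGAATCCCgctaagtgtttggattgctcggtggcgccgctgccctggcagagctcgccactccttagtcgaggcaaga
GBP1 (chr1:89065179-89065458, minus strand): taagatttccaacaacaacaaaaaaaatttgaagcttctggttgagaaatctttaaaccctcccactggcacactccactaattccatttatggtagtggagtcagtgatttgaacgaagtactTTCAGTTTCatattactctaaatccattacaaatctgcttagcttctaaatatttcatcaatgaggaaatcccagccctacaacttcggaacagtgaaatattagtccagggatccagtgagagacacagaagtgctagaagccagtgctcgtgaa
GBP3 (chr1:89022837-89023116, minus strand): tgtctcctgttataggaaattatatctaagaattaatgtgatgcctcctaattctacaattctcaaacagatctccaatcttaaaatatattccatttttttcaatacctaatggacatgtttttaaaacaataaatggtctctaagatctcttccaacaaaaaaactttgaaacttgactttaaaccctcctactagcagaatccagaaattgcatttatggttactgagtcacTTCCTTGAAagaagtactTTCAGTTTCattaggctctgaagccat

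Windows of 300 bases (250 before to 50 after the start) were searched on both strands for GAS (TTCNNNGAA), the ISRE core (GAAANNGAA) and the kB motif by its name, and 6 of the 8 members had a window in the RefSeq table. GBP2 and GBP5 had no window there. The IRF1 window held 1 GAS match, TTCCCCGAA, beginning 124 bases before the start, and 1 kB match, GGGGAATCCC, beginning 50 bases before it. In GBP3 a GAS match, TTCCTTGAA, began 15 bases before the start and an ISRE core match at base 4 after it. The GBP1 window held ISRE core matches 126 bases before the start and at base 38, beyond the printed part, and GBP4 held an ISRE core match across the start and a kB match 45 bases before it. IFNGR2 had 3 kB matches, and 1 of the 2 listed IFNGR1 windows had 1. Of all 35116 promoters of that length, 7.66% held a GAS match, 8.11% an ISRE core match and 11.3% a kB match. No pair of these matches overlapped. A match is a description of letters and not a binding site.

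**Figure D1:**
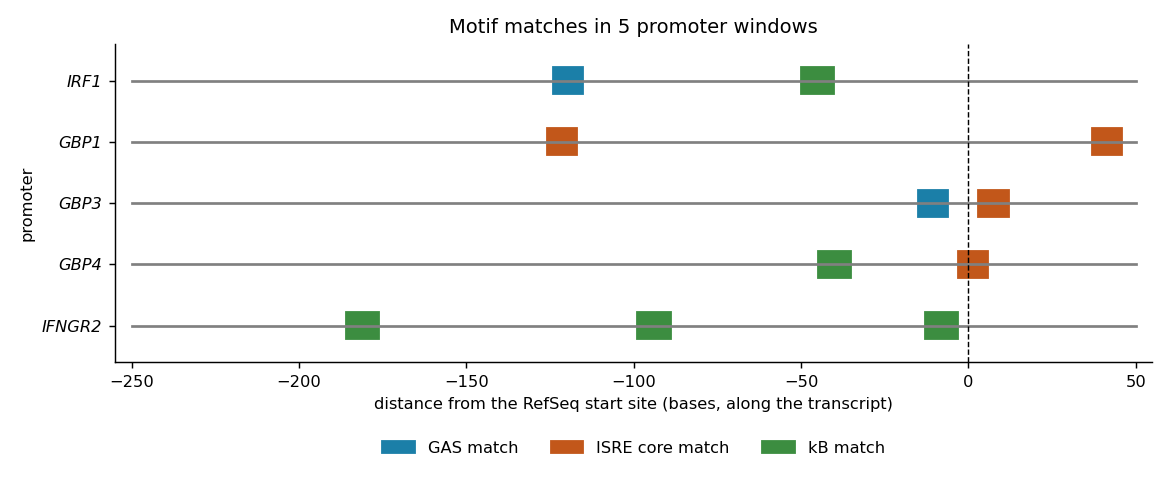
Motif matches in the promoter windows of 5 members, by distance from the RefSeq start site in bases along the transcript (dashed line at the start). Blocks mark GAS, ISRE core and kB matches on either strand, and IRF1 has a GAS block 124 and a kB block 50 bases before the start.

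Total counts ranged from 28047713 to 33122267 per library. As a check of the constructs, BCL10 had 885 to 1268 counts in vector libraries, 9838 to 14293 in S136X and 10117 to 10596 in R58Q, in which reads of the construct and of the cells' own gene are counted together. The 5 B-cell markers reported (MS4A1, CD79A, CD79B, PAX5 and CD22) were abundant, with 68192 to 101493 summed counts per library, and 0 of 5 was called in either mutant by edgeR, DESeq2 or limma-voom (3 in S136X and 2 in R58Q had an unadjusted edgeR p under 0.05). The 9 T and NK cell markers summed to 107 to 276 counts per library and the 7 monocyte and macrophage markers to 8 to 22. Most of the T and NK sum came from CD8A, with 81 to 215 counts per library, and CD4 had 9 to 62. CD3E reached at most 9 counts and CD3D and CD3G at most 2, while KLRD1 and FCGR3A were at 0 in all libraries. PRF1, the gene of perforin, was the 1 marker called, lower in each mutant by edgeR (-1.45 and -1.16 on the log2 scale) and by limma-voom. DESeq2 gave it no adjusted p in S136X and did not call it in R58Q (adjusted p = 0.105). Each PRF1 call was lost in 5 of the 6 fits without 1 library (all but S136X replicate 3 and all but R58Q replicate 2, adjusted p 0.0625 to 0.122, edgeR). Its part in the results was not tested. The column names of the table carry 2 dates, the later one for all R58Q libraries, so date and R58Q construct cannot be told apart in any comparison with R58Q.

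The members fell into 2 classes by depth. Only IRF1, IFNGR1, IFNGR2 and GBP3 had enough counts for the test (4 of 8), and GBP1, GBP2, GBP4 and GBP5 had at most 9 counts in any library. Levels compared between genes are CPM (counts relative to the library's depth, corrected by TMM) per kb of merged GENCODE exons. On that scale IFNGR2 stood highest, with a mean level of 21.7 ± 1.68 (SD, n = 3) in vector libraries. IRF1 (2.54 ± 0.375) and IFNGR1 (2.32 ± 0.0323) came next, with overlapping vector libraries, and GBP3 followed at a level of 0.432 ± 0.221. In R58Q libraries the IRF1 level was 10.4 ± 1.91 CPM per kb against 2.62 ± 0.114 for IFNGR1, and these no longer overlapped. The mean levels of the other 4 guanylate-binding protein genes were at most 0.0567 CPM per kb in any group. In bulk RNA, more cells expressing a gene and more RNA per cell cannot be told apart.

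**Figure D2:**
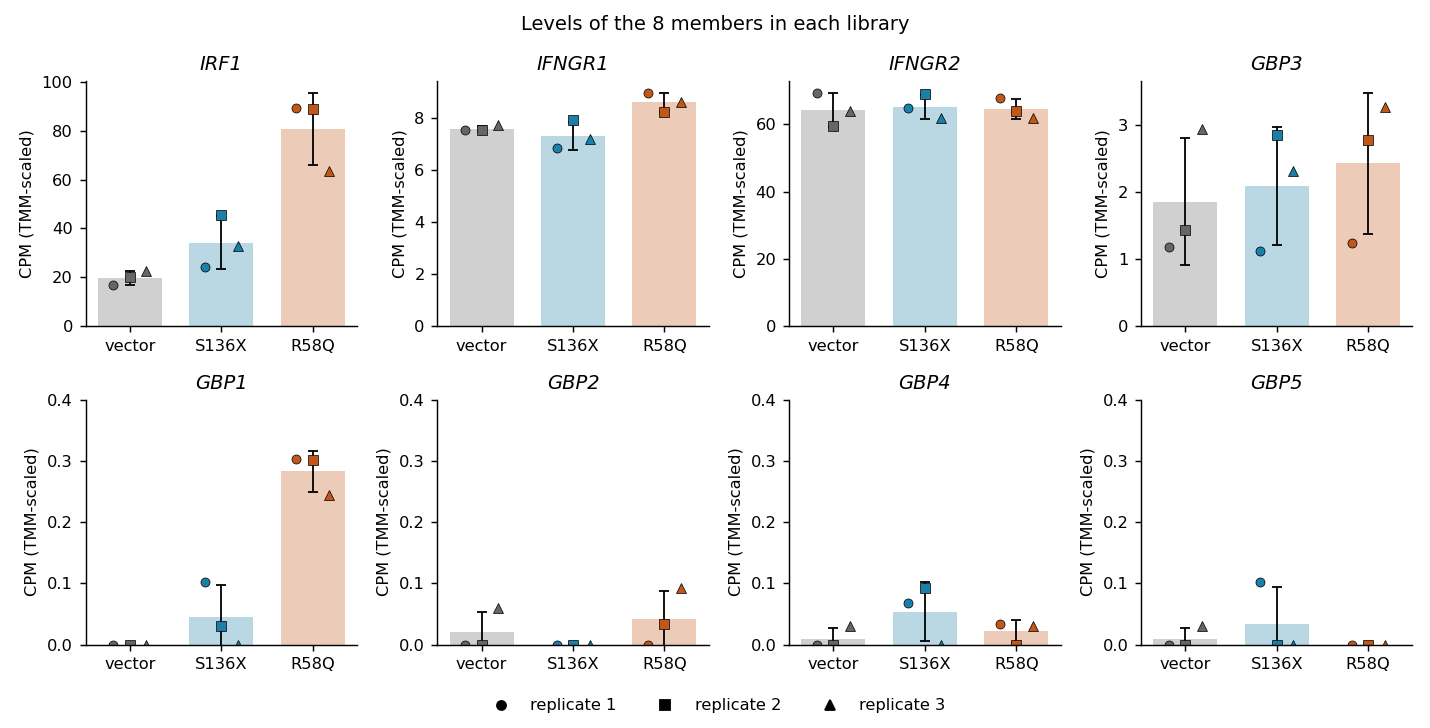
CPM (TMM-scaled) of the 8 members in each library, by group, with bars at group means, error bars of 1 SD (n = 3) and marker shapes for the replicate number. The R58Q libraries of IRF1 lie at 63.5 to 89.6 CPM, above the 16.6 to 22.4 of vector, while IFNGR2 is level across groups. The lower row has its own axis, which ends at 0.4 CPM.

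IRF1 was higher in both mutants, and more so in R58Q. It lies on chromosome 5 at 132481609 to 132490777 (GRCh38, ENSG00000125347.14). Vector libraries 1 to 3 held 561, 664 and 762 IRF1 counts, which is 16.6, 20.3 and 22.4 CPM. S136X libraries held 706, 1471 and 933 counts (24.1, 45.6 and 32.7 CPM). R58Q libraries held 2658, 2670 and 2077 counts (89.6, 89.2 and 63.5 CPM). On the CPM scale no group overlapped another: the lowest S136X library, replicate 1, was just above the highest vector library, and all R58Q libraries were well above both.

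In R58Q against vector, IRF1 rose by 2.03 on the log2 scale (SE 0.156, 95% interval 1.67 to 2.38, 4.07-fold), with an adjusted p of 0.000141 (edgeR quasi-likelihood test, Benjamini-Hochberg). Calls needed a change of 1.5-fold or more and an adjusted p below 0.05. IRF1 was the 1 member called of 4 tested, where 7.63% of all 15435 genes tested were called, and the call held in each alternative run, every left-out library included. In S136X against vector it rose by 0.79 (SE 0.21, interval 0.31 to 1.27, 1.73-fold) at an adjusted p of 0.0483, again 1 of 4 tested members, beside 3.87% of all 15530 genes tested. That call stood close to the threshold. It was lost with limma-voom (0.0636), upper-quartile factors (0.0541), total counts only (0.0668) and without any 1 of vector replicates 1, 2 and 3 or S136X replicates 2 and 3 (adjusted p 0.112, 0.148, 0.0665, 0.0989 and 0.102 by edgeR). A block on the replicate number, which assumes that same-numbered libraries are paired though no label says so, gave an S136X difference of 0.76 (SE 0.116, adjusted p = 0.00136, edgeR).

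R58Q against S136X gave an IRF1 difference of 1.23 (SE 0.229, interval 0.70 to 1.76, 2.34-fold) with an adjusted p of 0.0846, so 0 of 4 tested members was called, where 0.434% of 15195 genes were. With the replicate block the difference was 1.24 (SE 0.111) at an adjusted p of 2.03e-07 (edgeR), and IRF1 was called where 2.94% of all genes were. DESeq2 also called it (adjusted p = 4.16e-07), as did edgeR with no filter (4.8e-05) and with all 9 libraries in one fit (0.0245). Before adjustment 1668 genes, with IRF1 as the 1 member among them, were under 0.05 in this comparison by edgeR.

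IRF1-AS1, a long noncoding RNA on the opposite strand, overlaps IRF1 and shares many of the 35.3% of 31-base words of the longest IRF1 transcript that also occur in other genes. It had 37 to 131 counts, or 2.03% to 12.1% of the IRF1 count of the same library. Whether counting used strand is not given in the sources used here, so part of either count may belong to the other gene.

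**Figure D3:**
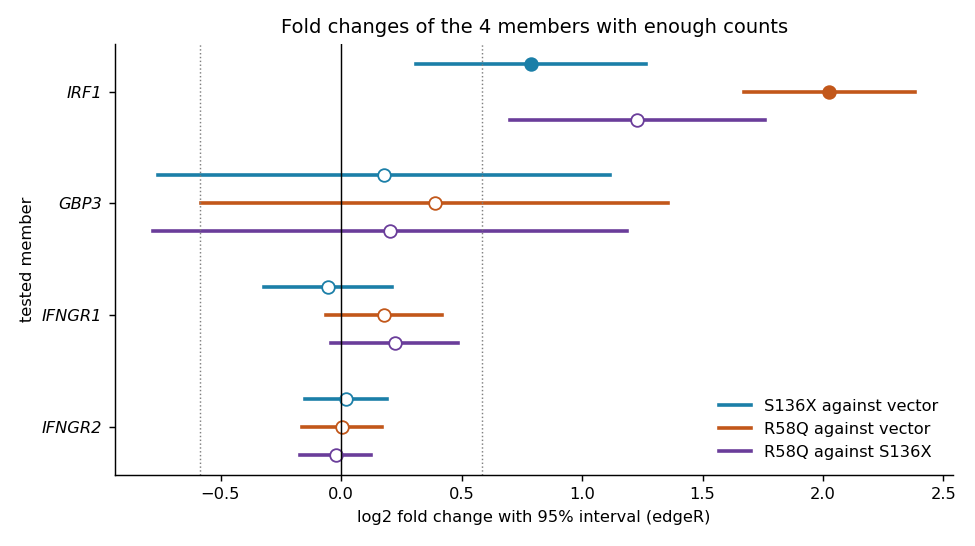
Log2 fold changes of the 4 tested members in the 3 comparisons, with 95% intervals from edgeR. Filled points were called, dotted lines mark 1.5-fold, and only the IRF1 intervals lie clear of 0, centred at 0.79, 2.03 and 1.23.

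The receptor chains changed little. IFNGR1 had 254, 246 and 262 counts in the vector libraries, 200, 255 and 205 in S136X and 266, 246 and 281 in R58Q. In CPM, R58Q (8.22 to 8.96) was above S136X (6.83 to 7.91) and vector (7.52 to 7.71) without overlap. The fitted difference was 0.18 (interval -0.06 to 0.42) against vector and 0.22 (-0.04 to 0.49) against S136X, both short of the call, and that of S136X against vector was -0.05 (-0.32 to 0.21). IRF1 and IFNGR1 were the 2 of 4 tested members whose R58Q and vector libraries did not overlap, where 40.3% of all genes did not. They were also the 2 for R58Q and S136X, beside 17% of all genes, and IRF1 was the 1 for S136X and vector, beside 31.3%.

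IFNGR2 held 2339, 1947 and 2173 counts in the vector libraries, 1896, 2226 and 1764 in S136X and 2014, 1919 and 2026 in R58Q. All groups overlapped in CPM (59.5 to 69.4 in vector). Its differences were 0.02 (interval -0.15 to 0.19) for S136X and 0.01 (-0.16 to 0.17) for R58Q against vector, and -0.02 (-0.17 to 0.12) between mutants, which leaves out a change of 1.5-fold in either direction. The signs against vector turned with upper-quartile factors and with total counts only. TMEM50B overlaps IFNGR2 in position and had 348 to 522 counts, or 16.9% to 26.2% of the IFNGR2 count of the same library. Whether reads are shared between them was not measured.

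Among the guanylate-binding proteins, GBP3 was the 1 with counts in every library. Its vector libraries held 40, 47 and 100 counts, its S136X libraries 33, 92 and 66, and its R58Q libraries 37, 83 and 107. Replicate 1 was the lowest in each group (1.19, 1.13 and 1.25 CPM), and the groups overlapped over most of their range. GBP3 differed by 0.18 (SE 0.413, interval -0.76 to 1.12) in S136X and 0.39 (SE 0.424, interval -0.58 to 1.36) in R58Q, with adjusted p of 0.819 and 0.549 (edgeR). A 2-fold rise in either mutant lies inside these intervals, which come from the fit without the replicate block. The sign of the S136X value turned when vector replicate 1 or S136X replicate 2 was left out (-0.05 and -0.10). With the replicate block the intervals were narrower and left out a 2-fold rise, at 0.19 (-0.41 to 0.79) in S136X and 0.39 (-0.09 to 0.88) in R58Q. GBP3 was not called there either (adjusted p 0.641 and 0.187, edgeR).

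GBP1, a member strongly induced by interferon-gamma in many cells, was counted 0, 0 and 0 times in vector, 3, 1 and 0 times in S136X and 9, 9 and 8 times in R58Q. Each R58Q library was above every other library. The minimum of 10 counts (0.309 CPM at the median depth) removed it from the test. Summed over libraries, 26 R58Q counts (exact Poisson interval 17.0 to 38.1) stood against 0 in vector, which allows up to 3. Against 3 counts over the vector group, GBP1 was at least 9.43-fold higher in R58Q. Against the 4 counts of S136X the ratio was 6.34 (exact binomial interval 2.2 to 25). These bounds and intervals cover counting error only, and the fold bound does not cover that of the 26 counts. With no filter, GBP1 was called in R58Q against vector (edgeR, adjusted p = 0.000261), where 4.76% of 30171 genes were, and not in S136X (0.363). Of the 31-base words of the longest GBP1 transcript, 25.7% occur in other genes, mainly the pseudogene GBP1P1 and GBP3. The vector libraries had 40 to 100 GBP3 counts beside 0 for GBP1, and GBP1P1 had at most 1 count in any library.

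GBP2, GBP4 and GBP5 were at the limit of detection in all groups. GBP2 had 0, 0 and 2 counts in vector, 0, 0 and 0 in S136X and 0, 1 and 3 in R58Q. For GBP4 the counts were 0, 0 and 1, then 2, 3 and 0, then 1, 0 and 1 in the same order. GBP5 had 1 count in vector replicate 3, 3 counts in S136X replicate 1 and 0 in the other libraries. No library of these genes exceeded 3 counts. GBP6 and GBP7 were at 0 in every library, which allows up to 3 counts over each group, or 0.0299 to 0.0333 CPM.

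Other genes of interferon-gamma signalling were read from a list of 9, of which 8 had enough counts. The called genes were all higher: 1 of 8 in S136X and 2 of 8 in R58Q, where 2.05% and 4.09% of all genes were called higher. At an unadjusted edgeR p under 0.05 there were 5 in S136X, 2 of them lower, and 6 in R58Q, 3 of them lower. Over the list, the median fold change on the log2 scale was 0.02 in S136X and 0.09 in R58Q, beside -0.02 and -0.03 over all genes.

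SOCS1, a feedback inhibitor of JAK kinases, had 61, 55 and 68 counts in vector, 83, 152 and 91 in S136X and 215, 267 and 296 in R58Q. It rose by 0.97 (SE 0.228, adjusted p = 0.0307) in S136X and by 2.19 (SE 0.156, adjusted p = 0.000109) in R58Q (edgeR). SOCS3, another feedback inhibitor that answers IL6 and STAT3, rose by 2.76 (SE 0.40) in R58Q, with 293, 194 and 620 counts against 48 to 78 in vector. Its S136X value was 0.92 at an adjusted p of 0.0854 (edgeR). With the replicate block it was 0.91 at an adjusted p of 0.00464 (edgeR). This brought the S136X count of the list to 2 of 8 called higher, beside 2.9% of all genes. The SOCS1 call in S136X was lost without any library but S136X replicate 1 (adjusted p 0.0635 to 0.131, edgeR). The R58Q calls held without each library in turn.

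The kinases and phosphatases of the pathway stayed under 1.5-fold. JAK1 was -0.23 in S136X and -0.25 in R58Q, and JAK2 was 0.07 and 0.28. Of the phosphatases that dampen the pathway, PTPN6 was -0.30 and -0.44 and PTPN2 was -0.04 and 0.00. PTPN11 was 0.23 and 0.19, and PIAS1, another inhibitor of the pathway, was -0.14 and -0.21. IFNG, the ligand itself, had 0 to 1 count in any library and 4 in all.

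Of 7 other genes of the IRF family, all tested, IRF4 and IRF7 were called in each mutant, both higher. Over all genes 2.05% were called higher in S136X and 4.09% in R58Q. IRF4, the factor of activated B cells and plasma cells, rose by 0.67 (SE 0.0744) in S136X and 0.76 (SE 0.0932) in R58Q. IRF7, which amplifies type I interferon production, rose by 1.25 (SE 0.279) and 1.76 (SE 0.238). The S136X call of IRF7 was lost without vector replicate 1 or 2 or S136X replicate 3 (adjusted p 0.0666 to 0.115, edgeR). IRF9, part of the type I signalling complex, was 0.41 in S136X and 0.79 in R58Q (adjusted p = 0.0536, edgeR). The R58Q difference was called with the replicate block (0.82, SE 0.154, adjusted p = 0.00354, edgeR), by DESeq2 (adjusted p = 0.0043) and by limma-voom (0.0428). IRF5 was 0.20 and 0.50, IRF8 0.16 and 0.26, IRF2 0.12 and 0.15, and IRF3 -0.14 and -0.09. The family list had a median of 0.20 in S136X and 0.50 in R58Q, beside -0.02 and -0.03 over all genes.

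The list of interferon ligands and of type I and type III receptors had 14 genes, 5 of them tested, and 0 was called in either mutant by edgeR, DESeq2 or limma-voom (2 in each had an unadjusted edgeR p under 0.05). TYK2, a kinase of the type I receptor, was 0.46 in S136X and 0.45 in R58Q. IFNAR1 was -0.08 and 0.10, IFNAR2 -0.20 and -0.30, IFNLR1 0.36 and 0.17, and IL10RB -0.34 and 0.37. IFNB1, the gene of interferon-beta, was below the filter, with 0, 3 and 1 counts in vector, 2, 3 and 3 in S136X and 4, 8 and 5 in R58Q. Every R58Q library was above the others, at 17 counts in all (exact Poisson interval 9.9 to 27.2) against 4 in vector (1.09 to 10.2). IFNA1, IFNA2, IFNE, IFNK, IFNW1 and IFNL2 were at 0 in all libraries, and IFNL1 and IFNL3 reached at most 3 counts.

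A list of 40 genes grouped here as a gamma-type response, 0 of them a member, was read beside the members. Many genes answer both kinds of interferon, so the list is not a readout of interferon-gamma alone. In S136X, 10 of 32 tested genes were called higher and 0 lower (19 and 0 at an unadjusted edgeR p under 0.05), and the median was 0.42 on the log2 scale. In R58Q, 18 of 32 were higher and 0 lower (1 lower before adjustment), with a median of 0.84. Over all genes 2.05% were called higher in S136X and 4.09% in R58Q, with medians of -0.02 and -0.03. Of the 32 genes tested in both mutants, the 4 highest by their mean were APOL6, CXCL10, TAP1 and HLA-DRA. APOL6, an apolipoprotein L gene, had 27, 31 and 30 counts in vector, 34, 91 and 35 in S136X and 206, 224 and 187 in R58Q. Its rise of 2.93 (SE 0.181, adjusted p = 5.34e-05, edgeR) in R58Q stood beside 0.99 (adjusted p = 0.123, edgeR) in S136X.

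CXCL10, a chemokine that draws T cells, rose by 1.34 (SE 0.337) in S136X and 2.31 (SE 0.374) in R58Q. TAP1, which carries peptides to MHC class I, rose by 1.15 (SE 0.309) and 2.16 (SE 0.208). HLA-DRA, the alpha chain of an MHC class II molecule, rose by 1.24 (SE 0.183) and 1.59 (SE 0.166), and its calls held without each library in turn. The S136X calls of CXCL10 and TAP1 were lost in 4 and 5 of the 6 fits without 1 library (adjusted p 0.0568 to 0.144 for CXCL10 without vector replicates 2 and 3 and S136X replicates 1 and 3, and 0.0606 to 0.171 for TAP1 without any library but S136X replicate 1, edgeR). The 2 lowest were ETV7 (0.24 and -0.93) and BATF2 (-0.72 and -0.13), neither called. CXCL11 and IDO1, both chosen after their values were seen, were among the 8 genes with too few counts, as most guanylate-binding protein genes were. CXCL11 had 1, 0 and 0 counts in vector, 2, 2 and 0 in S136X and 9, 2 and 4 in R58Q. IDO1 had 1 count over all libraries.

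The list of 44 genes of the type I response had a median of 1.12 in S136X, with 8 of 42 tested genes called higher and 0 lower, and 1.55 in R58Q, with 39 of 43 higher and 0 lower. Before adjustment 31 and 41 were under 0.05 by edgeR, and limma-voom called 2 and 28. Over all genes 2.05% and 4.09% were called higher by edgeR, with medians of -0.02 and -0.03, and 1.84% and 3.98% by limma-voom. Of the 42 genes tested in both mutants, IFI44L had the highest mean fold change (3.50, SE 0.929, in S136X and 4.14, SE 0.843, in R58Q), followed by XAF1, IFIT1 and DDX60. XAF1 was 3.19 in S136X (adjusted p = 0.0936, edgeR) and rose by 4.12 in R58Q (0.0241), IFIT1 was 3.02 (0.0695) and rose by 3.94 (0.0148), and DDX60 was 3.20 (0.0555) and rose by 3.70 (0.0143). The lowest of the 42 were MX2 (0.05 and 0.09) and IFI27 (-0.16 and 0.03). Without vector replicate 2 none of the IFI44L (0.0528), IFIT1 (0.0693), DDX60 (0.0645) and XAF1 (0.0979) calls in R58Q held by edgeR. XAF1 was also lost without vector replicate 1 or R58Q replicates 2 or 3 (0.0559 to 0.0618), and the IFI44L call in S136X without any library but S136X replicate 1 (0.0905 to 0.146).

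The count of type I genes in S136X depended on how replicates were treated. With the replicate block 30 of 42 were called higher, where 2.9% of all genes were. It was 36 without S136X replicate 1, 0 without vector replicate 2, 1 without vector replicate 1, 5 without vector replicate 3, 4 without S136X replicate 2 and 2 without S136X replicate 3. Over all genes 1.18% to 2.29% were called higher in these fits. The median of the type I list was 0.71 to 1.43 in them. Without vector replicate 2 it was 1.17, and 42 of 43 tested genes of the list were positive. The gamma-type count in S136X was 5 without vector replicate 2 and 6 without S136X replicate 2 or 3. In R58Q the type I count was 14 without vector replicate 2 and 25 without R58Q replicate 3. The gamma-type count in R58Q stayed between 14 and 24 over all alternatives, where 2.33% to 12.3% of all genes were called higher. Without vector replicate 2, 3.01% of all genes were called higher in R58Q and the type I median was 1.82. Without R58Q replicate 3 these were 3.19% and 1.59. Between R58Q and S136X, 0 of 44 type I genes were called by edgeR, DESeq2 or limma-voom (0 at an unadjusted edgeR p under 0.05). All 44 were nonetheless higher in R58Q, with a median of 0.54 beside 0.0028 over all genes. Without R58Q replicate 2, 32 of 44 were higher, with a median of 0.14, and without S136X replicate 1, 38 of 44 were, with a median of 0.17. Of 31 gamma-type genes, 27 were higher in R58Q, with a median of 0.27. For this list edgeR called 1, DESeq2 3 and limma-voom 2, beside 0.434%, 0.961% and 0.421% of all genes. With the replicate block in edgeR 19 type I genes and 7 gamma-type genes were higher in R58Q and 1 gamma-type gene lower. With that block 2.94% of all genes were called and 1.36% were called higher, beside 0.434% and 0.27% without it. S136X and R58Q share the vector libraries, so their values are set side by side with no test of likeness.

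Replicate number moved with the type I list and with GBP3 but not with IRF1 in R58Q. Set against the mean of the vector libraries, the median log2 deviation of the type I list in replicates 1, 2 and 3 was -0.38, 0.12 and 0.22 in vector. It was 0.10, 1.82 and 1.12 in S136X and 0.85, 2.10 and 1.70 in R58Q. The gamma-type list had narrower steps, at 0.24, 0.64 and 0.49 in S136X and 0.51, 0.96 and 1.01 in R58Q. GBP3 stood at -0.51, -0.25 and 0.76 in vector, -0.58, 0.71 and 0.42 in S136X and -0.44, 0.67 and 0.91 in R58Q. IRF1 followed the replicates in S136X (0.30, 1.21 and 0.73) but stood at 2.19, 2.18 and 1.69 in R58Q, where replicate 1 was the highest. GBP1 was likewise not lowest in R58Q replicate 1. What set replicate 1 apart was not tested.

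**Figure D4:**
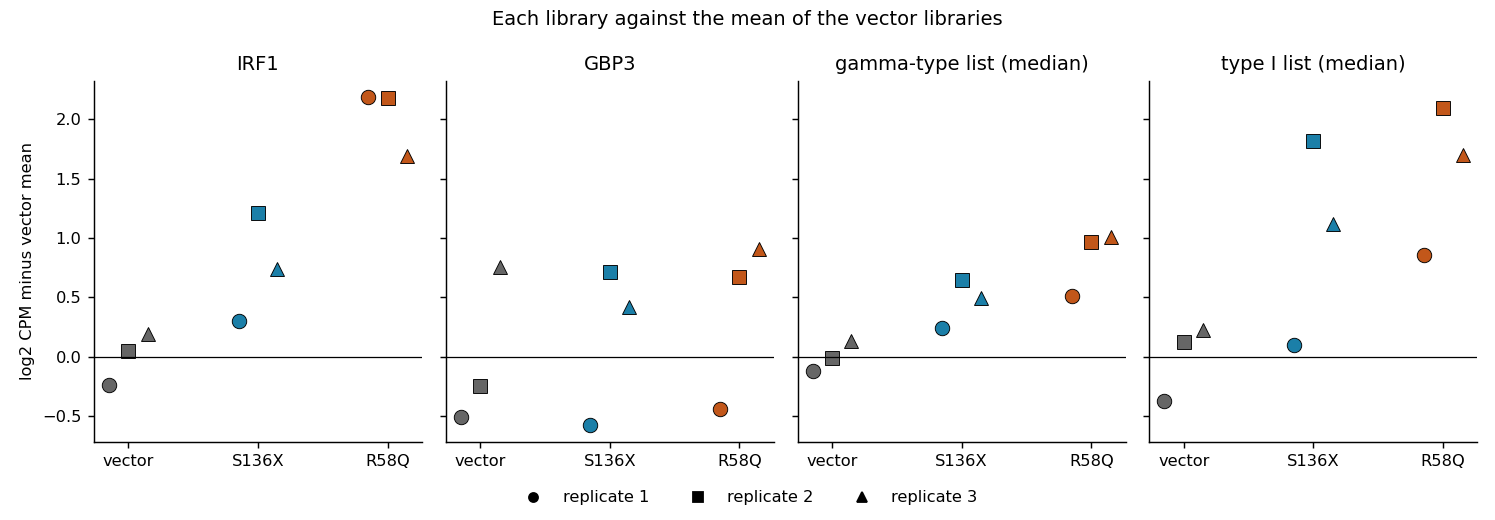
Log2 CPM of each library minus the mean of the vector libraries for IRF1, GBP3 and the medians of the gamma-type (32 genes) and type I (44 genes) lists, with marker shapes for the replicate number. Replicate 1 (circles) is lowest in each group for both lists and GBP3, while for IRF1 in R58Q it lies highest, at 2.19.

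When replicate 1 of both groups was left out, an alternative chosen after seeing the data, the IRF1 differences were 0.89 (adjusted p = 0.00653) for S136X and 1.85 (adjusted p = 0.000393) for R58Q against vector, both still called by edgeR. R58Q against S136X was 0.95 (adjusted p = 0.159, edgeR). The type I list then had 35 of 43 tested genes called higher in S136X and 41 of 44 in R58Q. The gamma-type list had 13 and 21 of 32. Over all genes 2.41% and 4.05% were called higher in these fits. GBP3 remained uncalled at 0.25 and 0.48.

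**Figure D5:**
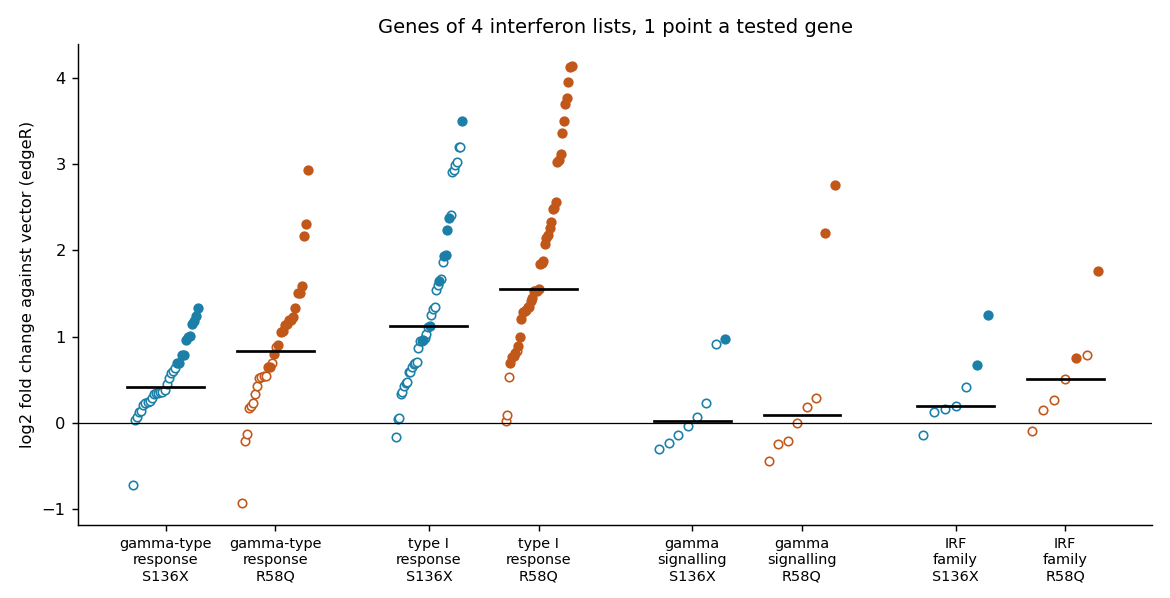
Log2 fold changes against vector of each tested gene in 4 interferon lists, sorted within each column, for S136X and R58Q. Filled points were called and black lines are medians, which stand at 0.42 and 0.84 for the gamma-type list and 1.12 and 1.55 for the type I list.

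The genes whose level followed IRF1 most closely over the 9 libraries (Pearson's r of log2 CPM) were NLRC5 (r = 0.994), APOL6 (0.982), ARMC8 (0.978), GLUD1 (0.973) and STAT3 (0.969). NLRC5, the transactivator of MHC class I genes, belongs to the gamma-type list. It was 50.2, 53.2 and 56.8 CPM in vector, 57.3, 79.2 and 68.6 CPM in S136X and 128, 128 and 110 CPM in R58Q, so all groups were apart. NLRC5 rose by 1.19 (SE 0.0815) in R58Q against vector and by 0.83 (SE 0.122, adjusted p = 0.0387) against S136X (edgeR). It was the 1 gamma-type gene called between the mutants by edgeR without the block, and that call was lost without any 1 of the 6 libraries (adjusted p 0.0519 to 0.221, edgeR). With the replicate block NLRC5 was also called (adjusted p = 6.68e-08, edgeR), as it was by DESeq2 and limma-voom. Within groups, the deviations of NLRC5 and IRF1 from their group means also correlated at 0.992, against 0.64 for STAT3.

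GBP3 was most like PRKCSH (r = 0.963), NAA60 (0.949), FCRL4 (0.944), HSH2D (0.940) and RBCK1 (0.939), and none of these is among the genes most like IRF1. GBP3 and IRF1 themselves had r = 0.375, IRF1 and IFNGR1 0.783, and IRF1 and IFNGR2 0.107. These values describe 9 libraries that share group, replicate number and depth, and they come from a search over all genes tested, so they carry no test.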

How the data were processed

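The analysis used 9 RNA-seq libraries of RIVA cells under doxycycline, 3 per group, grouped by sample title. Per the labels and the paper's methods, poly(A)-selected RNA was read as single-end reads on an Illumina NovaSeq, with the reads of both runs combined per library. The submitters' processing notes name STAR, Picard, cutadapt and the build hg38, while the counting program, annotation and strand setting are not given in the sources used here. The authors deposited raw read counts per gene, and a second set of normalized columns was not used. Of the identifiers, 96.4% are in GENCODE release 29, and 99.9% of those overlap in position. 0 rows lacked a gene and 0 numeric columns lacked a sample.

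Each pair of groups was fitted in R 4.3.3 with edgeR 4.0.16 (filterByExpr, minimum count 10 and total 15, TMM, quasi-likelihood F test, Benjamini-Hochberg over all genes tested, called at an adjusted p under 0.05 and 1.5-fold). Standard errors are the log2 fold change over the root of F. The paper's general statement on statistics gives unpaired tests and names none for fits across all genes. Alternatives were DESeq2 1.42.0, limma-voom (limma 3.58.1), other scalings, filters and thresholds, all libraries in one fit, a replicate block and each library left out. Procedures were tested on simulated data.

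The members and gene lists were chosen with earlier results of these data known, so no list is independent evidence. Named genes were all members and the genes of the short lists, the 4 highest and 2 lowest of each response list by the mean of both mutants, and the 5 genes most like IRF1 and GBP3. Some listed genes are not reported here and were left out of the lists and their counts. Labels number the replicates 1 to 3. All 9 correlations of deviations from group means between same-numbered libraries were above 0.1 (0.143 to 0.626, median 0.425). The median for different numbers was -0.251, but deviations within a group sum to 0, so it is not separate evidence. Vector replicate 2 paired weakly (0.143 and 0.163), below the 0.169 of vector replicate 3 with R58Q replicate 2. For the replicate block alone, the numbers were taken to pair the libraries, although no label says that they share a culture. All other fits, the main ones included, were unpaired. R58Q columns carry a later date than the libraries that share their numbers. The pairing was read from these same data, and results with the replicate block depend on it. The paper calls the samples biologic replicates, and the labels do not tie them to separate cultures, so p-values measure the spread between these samples. Every pair of replicates differed beyond counting noise, with a chi-square of 7.21 to 23.0 per degree of freedom. A count of 0 allows up to 3, for counting error only.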

Additional observations from a re-analysis of the deposited data

How the results depend on the processing

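IRF1 kept its rise in R58Q against vector under all 15 other fits (log2 fold change 1.85 to 2.18). The number of members called in S136X against vector, 1 in the report, was 0 with limma-voom, upper-quartile factors, total counts only, an adjusted p under 0.01 and a 2-fold minimum, and 0 to 1 when 1 library was left out. In that order 3.6%, 3.93%, 4.02%, 1.69% and 1.56% of all genes were called, and 1.75% to 4.41% with 1 library left out. In R58Q against vector 2 members were called with no filter, where 4.76% of all genes were. Between R58Q and S136X 0 members were called in the report. With DESeq2, no filter, all 9 libraries in one fit and the replicate block 1 was. In that order 0.961%, 0.556%, 0.719% and 2.94% of all genes were called. The gamma-type count in S136X was 4 at an adjusted p under 0.01 and 5 at 2-fold. It was 5 to 12 with 1 library left out and 13 without replicate 1. The type I count in S136X was 2 with limma-voom, 33 with no filter, 30 with the replicate block, 35 without replicate 1 (chosen after seeing the data), 1 at an adjusted p under 0.01 and 0 to 36 with 1 library left out. The median of the type I list was 0.71 to 1.43 with 1 library left out. Over all genes 1.84% were called higher in S136X with limma-voom, 1.52% with no filter, 2.9% with the replicate block and 1.04% at 2-fold. The share was 2.41% without replicate 1, 1.17% at an adjusted p under 0.01 and 1.18% to 2.29% with 1 library left out. In R58Q the type I count was 14 at an adjusted p under 0.01 and 14 to 42 with 1 library left out. The share of all genes called higher was 2.75% and 3.01% to 3.98% there. The cause of these shifts was not tested.

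The sign of uncalled values turned for GBP3 with 1 library left out (-0.0972 to 0.695 in S136X against vector and -0.0934 to 0.517 in R58Q against S136X). IFNGR1 in S136X against vector turned to 0.0030 without replicate 1 and was -0.1007 to -0.0062 with 1 library left out. IFNGR2 turned with upper-quartile factors (-0.0577 in R58Q and -0.0158 in S136X) and total counts only (-0.0527 and -0.0326). With 1 library or both replicate 1 libraries left out it ranged from -0.0431 to 0.0781 in R58Q, -0.0282 to 0.0995 in S136X and -0.0616 to 0.0218 between mutants. The signalling list had 2 genes called in S136X with the replicate block against 1 without it, where 2.9% and 2.05% of all genes were called higher. Beyond the counts given here, the block changed no other member call and moved no other list count by over 1.5 times against vector. Over all genes, 319 were called higher and 282 lower in S136X, and 257 and 368 with total counts only. In R58Q these were 632 and 546, and 542 and 772 with upper-quartile factors. Depth limits GBP1, GBP2, GBP4 and GBP5, and 3 libraries a group limit GBP3, whose intervals without the block span more than 2-fold.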
